A study of Medicago truncatula with 12 samples.

Results

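Among the genes expressed in *M. truncatula* seedlings before stress, a small set was lower after 12 h of cold and higher after 12 h of drought and of salt. The 100 genes with the clearest pattern of this kind are described here. Expression is given as FPKM, the number of fragments scaled to the length of the transcript and to the mapped reads of the library, and each change as L, the log2 ratio of (FPKM + 1) to (FPKM + 1) at 0 h of the same stress. A gene had to reach 1 FPKM in all 3 libraries at 0 h, and the *SWEET* sugar transporter genes that the study was about were left out. Of 54073 listed genes, 20864 passed. The 100 genes were selected on the 12 h values, as those with the highest score, which is the smallest of L in drought, L in salt and minus L in cold.

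The libraries came from wild type seedlings of cultivar Jemalong A17, 4 weeks old, grown in cycles of 14 h light and 10 h dark at 22 to 24 °C. Whole seedlings were taken after 0, 2, 6 and 12 h of drought (transfer to dry filter paper), salt (NaCl in the nutrient solution) or cold (a constant low temperature). The study describes its treatments as done in triplicate, but each of the 12 conditions had 1 library, so no difference between conditions has a replicate check and no p-value is given. The series used here has no unstressed libraries at 2, 6 and 12 h, so an effect of stress and one of time or of the transfer itself cannot be told apart within a stress. In whole seedlings, fewer cells of a type and less RNA per cell also cannot be told apart.

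Drought and high salinity both limit the water a plant can take up. Abscisic acid, a plant hormone that accumulates under water deficit, switches on many genes in both conditions. Cold acts in *Arabidopsis* partly through other regulators, the CBF transcription factors, and many water deficit genes are also induced by cold. The genes below are given by the identifiers of the files, because 0 of these identifiers matched the RefSeq gene table used here. No member therefore has a name, a product or a function in the text, and the tissue label was not checked against marker genes.

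The libraries held 12206718 to 25438727 fragments on genes, with a median of 16483557. A value of a member rested on a median of 240 fragments, and 9 members had fewer than 20 fragments in at least 1 library at 0 h. The 3 libraries at 0 h come nearest to replicates, although their values also entered the rule as the reference of L. Across them the members had a median log2 range of 0.25, against 0.20 for all genes that passed the filter. At 0 h the median log2 difference of the members was -0.07 for drought over cold and -0.07 for salt over cold. Over all genes it was -0.006 and 0.01. A total of 0 members differed 2-fold between drought and cold at 0 h, against 0.129% of all genes. Between salt and cold 2 members did, against 0.729% of all genes. The widest spread was in *MTR_7g005900*, a member named after its values were seen, with 5.56 FPKM at 0 h of drought, 1.44 FPKM at 0 h of salt and 8.18 FPKM at 0 h of cold. Its log2 range of 1.91 is larger than many of the changes described below.

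By the choice of the members, all were higher at 12 h of drought and salt and lower at 12 h of cold than at 0 h. These values are given as a description only. At least 2-fold higher at 12 h were 84 members in drought (7.54% of all genes) and 87 in salt (9.91% of all genes). At least 2-fold lower at 12 h of cold were 60 members (8.45% of all genes). In all 3 stresses 49 members passed 2-fold. By the rule these are all the genes that did so among the 20864 past the filter. The median L at 12 h was 1.499 in drought, 1.63 in salt and -1.10 in cold. Over all genes that passed the filter it was -0.26 in drought, -0.28 in salt and -0.18 in cold. A shift of this size runs through the whole libraries. Genes above 0 in all 12 libraries gave each library a scaling factor, its median ratio to their geometric means. The log2 ratio of this factor to that at 0 h of the same stress lay between -0.27 and -0.10 over the 9 stressed libraries. Changes of the members are therefore read against the values of all genes.

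The threshold of the rule fell in a continuous range of scores. The last 3 genes inside it were *MTR_7g077215*, *MTR_6g477750* and *MTR_4g090350*, with a score of 0.81 each. Just outside were *MTR_0020s0020* (0.81), *MTR_7g027175* (0.80) and *MTR_8g094980* (0.80). The score passed 0 in 2313 genes and reached 1 in 49 genes.

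*MTR_4g068560* had the highest score, 2.09. Its FPKM at 0, 2, 6 and 12 h was 4.28, 9.21, 74.3 and 75.0 in drought, 4.07, 14.1, 38.0 and 34.4 in salt, and 5.15, 1.11, 1.51 and 0.447 in cold. Cold was below both drought and salt at every time after 0 h, and it was already low at 2 h. Only 4 fragments lay behind the last cold value.

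*MTR_5g091100*, the second by score, had 7.97, 7.27, 35.0 and 32.0 FPKM in drought, 8.58, 29.2, 49.2 and 52.2 FPKM in salt, and 7.77, 4.19, 2.51 and 1.54 FPKM in cold. Here salt was high from 2 h, whereas drought at 2 h was close to its own 0 h level. *MTR_3g087510* was expressed at a higher level, with 30.6, 18.5, 143 and 216 FPKM in drought, 26.3, 48.0, 81.4 and 90.4 FPKM in salt, and 31.3, 23.6, 7.78 and 7.88 FPKM in cold. In drought it was lower at 2 h than at 0 h before the high values at 6 and 12 h.

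*MTR_2g064660* was the member that reached 0 in cold. It had 1.76, 6.55, 5.03 and 7.96 FPKM in drought, 1.77, 14.8, 12.1 and 6.73 FPKM in salt, and 2.81, 2.90, 0.171 and 0 FPKM in cold. The 12 h cold value is a count of 0 fragments, which allows up to 3 fragments, or 0.530 FPKM. The 6 h cold value rested on 2 fragments. The other members among the first 10 by score were *MTR_5g095740*, *MTR_7g117415*, *MTR_4g011060*, *MTR_5g096820*, *MTR_8g085650* and *MTR_8g091590*, with scores between 1.39 and 1.62.

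**Figure D1:**
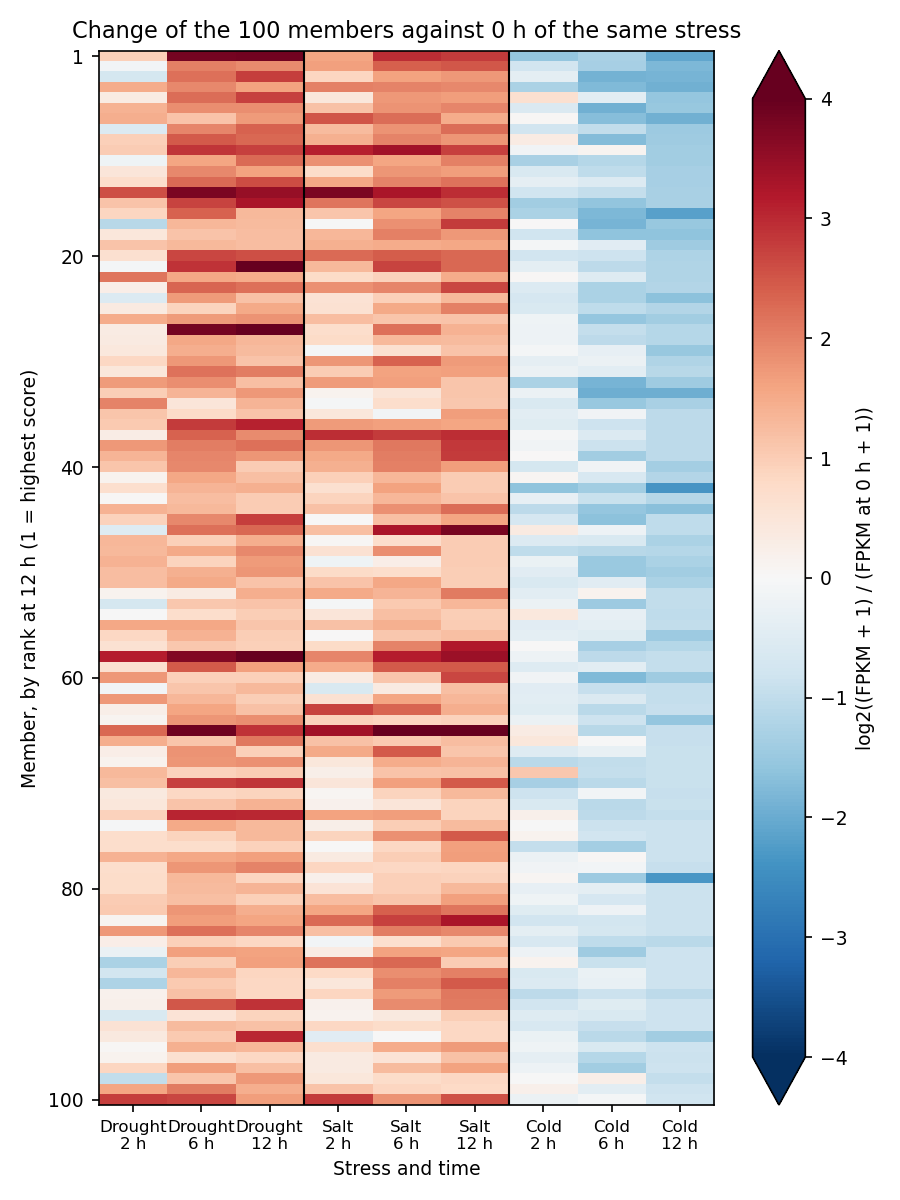
Change of each of the 100 members (rows, ranked by score at 12 h) against 0 h of the same stress, as log2((FPKM + 1) / (FPKM at 0 h + 1)), at 2, 6 and 12 h of drought, salt and cold (columns). The 12 h columns chose the genes, and the 0 h libraries behind every column also entered the rule. At 6 h all 100 rows are above 0 in drought, 98 are above 0 in salt and 96 are below 0 in cold. The shares of all genes were not computed for these counts. The all-gene median at 6 h was below 0 in each stress (-0.24 in drought, -0.14 in salt, -0.18 in cold). The 2 h columns are paler and more mixed.

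The libraries at 6 h took no part in the choice of the members, so drought or salt against cold at 6 h is a comparison that neither 0 h nor 12 h values enter. At 6 h of drought 96 members were at least 2-fold above 6 h of cold, against 9.93% of all genes. At 6 h of salt 92 members were at least 2-fold above 6 h of cold, against 9.24% of all genes. Both comparisons use the same cold library, and 92 members passed 2-fold in both, against 6.68% of all genes. All 100 members were above cold at 6 h in both drought and salt, against 39.2% of all genes. The median log2 ratio of the members was 2.45 for drought over cold and 2.34 for salt over cold, against -0.10 and 0.03 over all genes.

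For each member the smaller of its drought over cold and salt over cold log2 ratios at 6 h was also taken. It ranged from 0.31 to 4.48 with a median of 2.18, against a median of -0.18 over all genes. It reached 3 in 17 members, and the share of all genes that reached 3 was not computed. In 96 members it was larger than the log2 range of that gene across the 3 libraries at 0 h, against 26.8% of all genes. The 4 exceptions, named after their values were seen, were *MTR_6g463390*, *EPlMTRG00000000026*, *MTR_4g094798* and *MTR_7g005900*, which had at most 41 fragments in any library at 0 h.

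**Figure D2:**
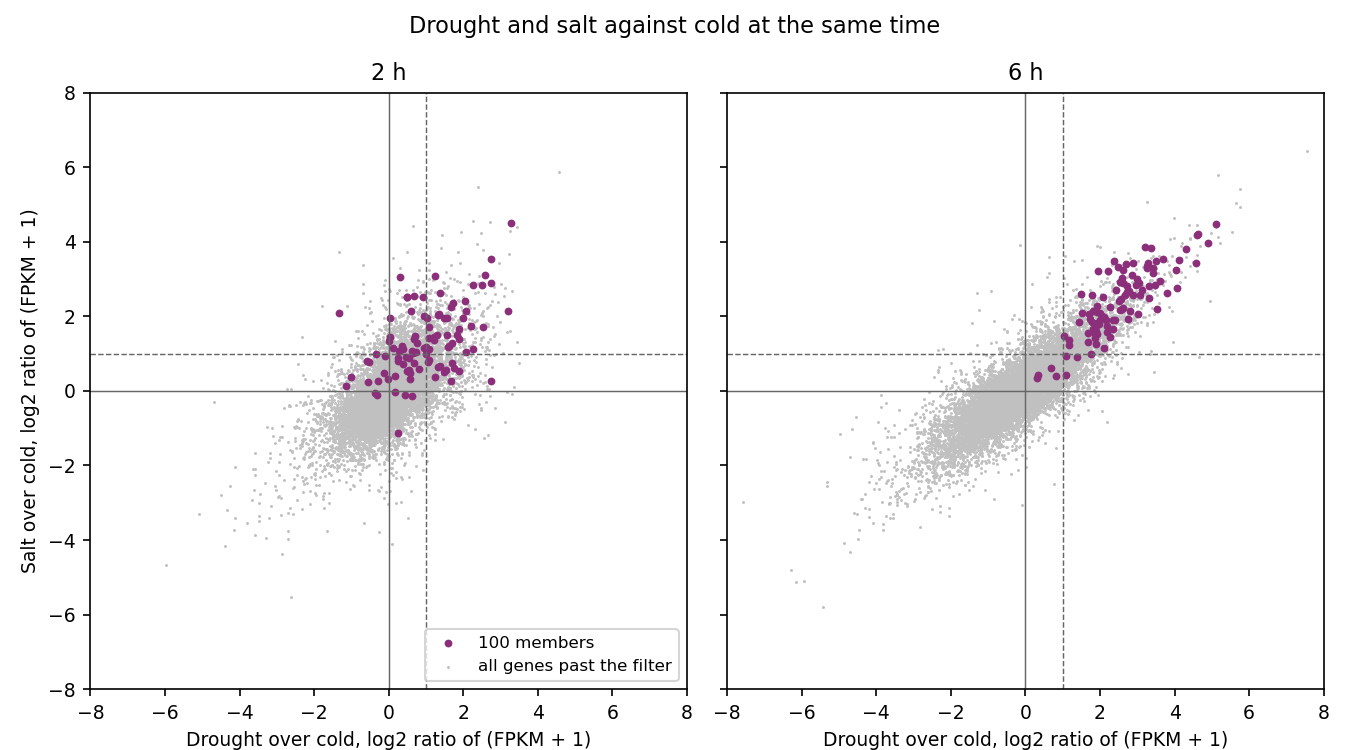
Log2 ratio of (FPKM + 1) in drought over cold (horizontal) and salt over cold (vertical) at 2 h (left) and 6 h (right), for the 100 members (purple) and all 20864 genes past the filter (grey); dashed lines mark 2-fold. Inside the upper right quadrant bounded by the dashed lines lie 36 members at 2 h and 92 members at 6 h. Both axes share the cold library of that time.

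The member with the largest of these smaller ratios, 4.48, was *MTR_5g031250*. At 0, 2, 6 and 12 h it had 4.29, 24.7, 77.7 and 38.2 FPKM in drought, 2.20, 32.0, 49.6 and 54.2 FPKM in salt, and 3.93, 5.19, 1.27 and 1.59 FPKM in cold. At 6 h its FPKM in drought was 61.3 times that in cold (95% Clopper-Pearson interval of the fragment counts 47.5 to 80.4), and its FPKM in salt 39.2 times (30.4 to 51.4). These intervals cover counting error only and say nothing of the spread between seedlings. The gene was rank 65 by score, which its L of -0.93 at 12 h of cold set.

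*MTR_2g090235* was next at 6 h, with 2.05, 17.4, 40.1 and 33.2 FPKM in drought, 2.15, 41.6, 29.5 and 23.4 FPKM in salt, and 2.24, 0.882, 0.661 and 0.308 FPKM in cold. Its profiles had separated by 2 h, when salt exceeded cold 47.1-fold (35.0 to 65.1) and drought exceeded cold 19.7-fold (14.5 to 27.3). *MTR_1g015165* had 1.96, 25.3, 37.3 and 71.0 FPKM in drought, 2.25, 11.5, 27.5 and 33.6 FPKM in salt, and 2.28, 1.84, 0.575 and 0.680 FPKM in cold. Unlike in *MTR_2g090235*, its drought value was the higher one at 2 h.

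*MTR_3g104550* gave 3.03, 7.91, 25.1 and 37.4 FPKM in drought, 1.89, 11.8, 17.3 and 15.9 FPKM in salt, and 2.88, 0.494, 0.313 and 0.584 FPKM in cold. At 6 h drought exceeded cold 80.2-fold, but with 10 fragments in the cold library the interval ran from 43.2 to 168. *MTR_3g116240* had 1.78, 2.49, 38.1 and 52.7 FPKM in drought, 2.79, 5.20, 16.4 and 8.82 FPKM in salt, and 2.15, 1.71, 0.627 and 0.421 FPKM in cold. At 2 h it was within 2-fold of its 0 h level in all 3 stresses, and the wide gap appeared at 6 h.

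*MTR_8g070040*, with 11.3, 10.6, 90.5 and 209 FPKM in drought, 11.8, 30.2, 81.4 and 61.3 FPKM in salt, and 13.8, 10.4, 6.10 and 5.40 FPKM in cold, parted late in drought too. *MTR_7g065720* showed the opposite timing, with 29.6, 99.0, 109 and 69.3 FPKM in drought, 33.1, 109, 106 and 73.0 FPKM in salt, and 34.3, 13.8, 8.66 and 12.2 FPKM in cold. Its 3 profiles were largely formed at 2 h, and drought and salt stayed close to each other throughout.

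**Figure D3:**
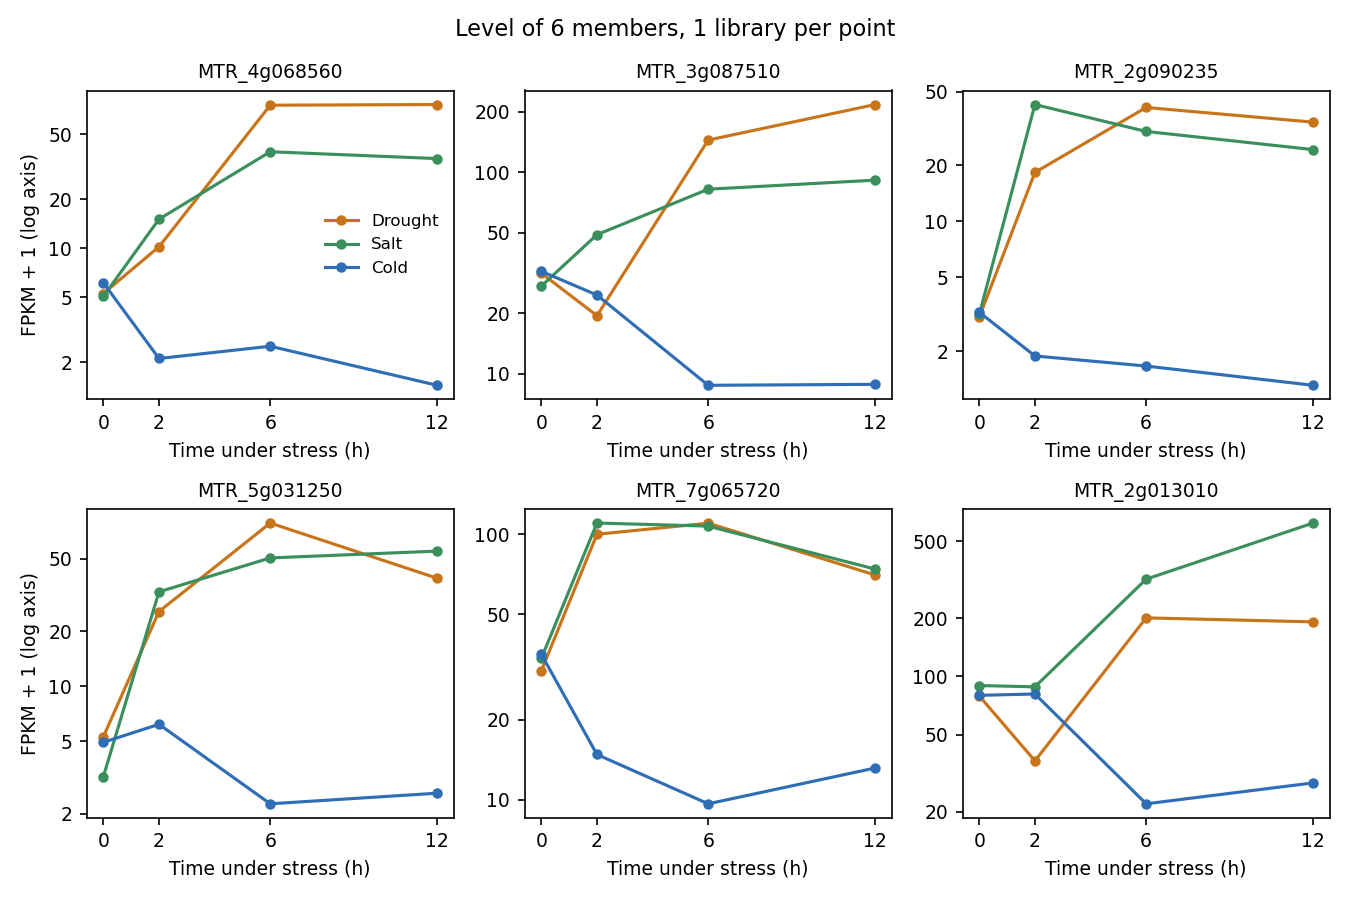
FPKM + 1 (log axis) at 0, 2, 6 and 12 h of drought, salt and cold for 6 members, with 1 library per point and no error bars. In all 6 panels the cold line is below both others at 6 and 12 h, while at 2 h drought is below cold in *MTR_3g087510* and *MTR_2g013010*.

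The 5 members with the highest mean FPKM at 0 h rested on 233 to 2554 fragments in each library at 0 h. *MTR_2g013010* had 78.3, 35.6, 200 and 191 FPKM in drought, 88.7, 87.4, 318 and 621 FPKM in salt, and 78.9, 80.2, 20.9 and 27.1 FPKM in cold. At 6 h drought exceeded cold 9.55-fold (8.95 to 10.2) and salt exceeded cold 15.2-fold (14.3 to 16.2). At 2 h, by contrast, drought was at 0.444 times the cold value (0.417 to 0.473).

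*MTR_4g007300* had 73.7, 160, 280 and 151 FPKM in drought, 87.0, 237, 357 and 278 FPKM in salt, and 80.6, 49.3, 73.4 and 30.7 FPKM in cold. Its cold value at 6 h was close to that at 0 h, so the cold profile was not a steady decline. *MTR_5g042990*, *MTR_6g090490* and *MTR_2g076490* stood at 52.0 to 68.7 FPKM at 0 h. At 6 h these last genes exceeded cold between 3.58-fold and 4.30-fold in drought and between 4.09-fold and 5.78-fold in salt.

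At the other end were the 3 members with the smallest ratios at 6 h. *MTR_7g077215* had 54.1 FPKM in drought, 40.3 FPKM in salt and 30.1 FPKM in cold at 6 h, which is 1.80 times cold (1.60 to 2.02) in drought and 1.34 times (1.19 to 1.51) in salt. *MTR_4g094798* had 2.63 FPKM in drought, 2.88 FPKM in salt and 1.89 FPKM in cold, and *EPlMTRG00000000026* had 6.76, 6.92 and 5.27 FPKM in the same order. In the last pair of genes both counting intervals of the ratio to cold included 1, so a difference at 6 h was not detectable at this depth.

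At 2 h, which the rule did not use either, the separation was smaller and less general. At least 2-fold above cold were 49 members in drought (5.38% of all genes), 59 in salt (5.52% of all genes) and 36 in both (2.31% of all genes). The median log2 ratio was 0.97 for drought over cold and 1.15 for salt over cold, against -0.03 and -0.06 over all genes. Above cold by any amount were 87 members in drought (47.2% of all genes), 94 in salt (44.2% of all genes) and 83 in both (32.6% of all genes). The smaller of both ratios exceeded the 0 h range of the gene in 66 members, against 17.4% of all genes.

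Within each stress, the comparison with 0 h shares its 0 h library with the rule, so the counts at 2 and 6 h are not independent of the choice. In drought 36 members were at least 2-fold higher at 2 h (5.26% of all genes), and 84 at 6 h (8.4% of all genes). In salt 46 members were at least 2-fold higher at 2 h (5.78% of all genes), and 74 at 6 h (7.37% of all genes). In cold 12 members were at least 2-fold lower at 2 h (2.66% of all genes), and 45 at 6 h (6.79% of all genes). The cold count at 2 h became 7 (2.5% of all genes) when the mean of the 3 libraries at 0 h was the control.

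The median L at 2, 6 and 12 h was 0.69, 1.56 and 1.499 in drought, 0.87, 1.60 and 1.63 in salt, and -0.39, -0.94 and -1.10 in cold. In drought and salt the median at 6 h was thus already that at 12 h, within 0.1 on the log2 scale. In FPKM, the median member stood at 7.45, 16.7, 35.2 and 33.0 at 0, 2, 6 and 12 h of drought and at 8.25, 19.9, 30.5 and 29.2 in salt. In cold it stood at 8.43, 6.93, 4.66 and 3.14.

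**Figure D4:**
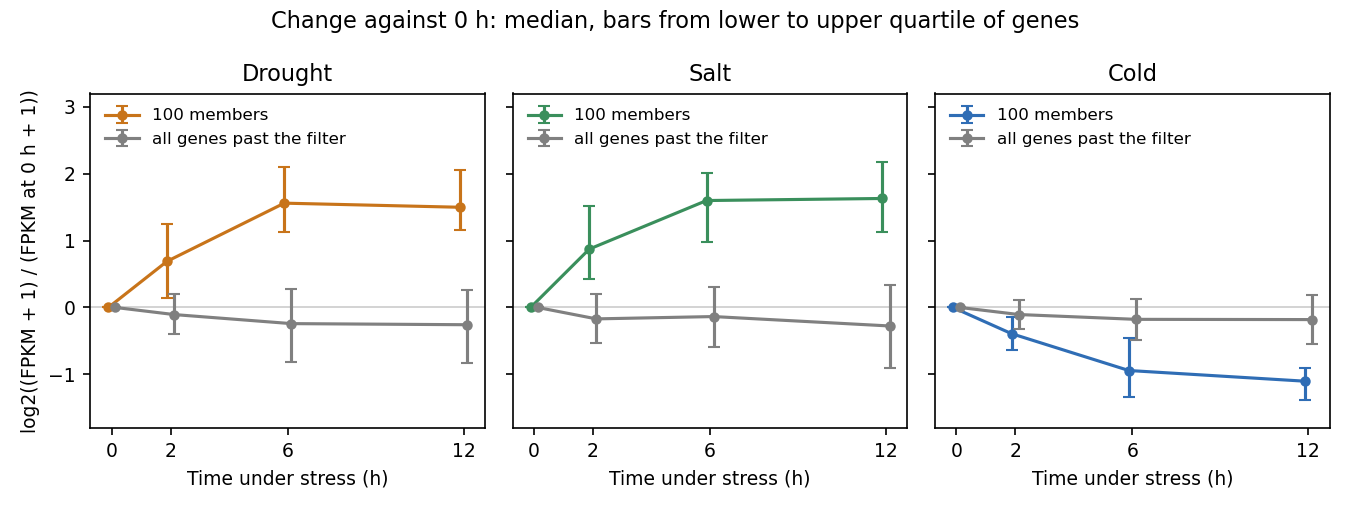
Median of log2((FPKM + 1) / (FPKM at 0 h + 1)) at 0, 2, 6 and 12 h of drought, salt and cold, for the 100 members (colour) and all genes past the filter (grey); bars run from the lower to the upper quartile of the genes and are not replicate errors. The 12 h points and the 0 h libraries chose the members. The member median reaches 1.56 in drought and 1.60 in salt at 6 h, and -0.94 in cold.

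Single members did not all follow the median. The 0 and 12 h values in the following counts chose the members, and shares over all genes were not computed for them. In drought the highest FPKM was at 12 h in 46 members, at 6 h in 46 and at 2 h in 8. In salt it was at 12 h in 61 members, at 6 h in 29 and at 2 h in 10. In cold the lowest FPKM was at 12 h in 69 members, at 6 h in 29 and at 2 h in 2, and the highest was at 0 h in 78.

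In cold 34 members were at least 2-fold lower at both 6 and 12 h (3.95% of all genes), 26 at 12 h only (4.5%) and 11 at 6 h only (2.84%). The 12 h calls are part of the rule. The other 29 were not 2-fold lower at either time (88.7% of all genes), so their place on the list rests on smaller changes. From 6 to 12 h the median log2 change of the members was -0.01 in drought, 0.14 in salt and -0.22 in cold. At least 2-fold changes between these times were found in drought in 3 members up (1.11% of all genes) and 2 down (1.64%). In salt they were found in 3 members up (1.51%) and 2 down (5.57%), and in cold in 0 members up (1.45%) and 6 down (2.1%).

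Members named from here on were, unless named above, chosen after their values were seen. *MTR_3g463720* had the lowest L at 2 h of cold, -1.60, with 9.79, 16.0, 26.4 and 27.8 FPKM in drought, 10.6, 17.0, 34.5 and 22.6 FPKM in salt, and 11.3, 3.06, 3.70 and 1.39 FPKM in cold. *MTR_4g067040* was the 1 member at least 2-fold higher at 2 h of cold, with 1.96, 6.24, 4.56 and 4.96 FPKM in drought, 1.36, 1.78, 4.22 and 4.38 FPKM in salt, and 1.88, 5.04, 0.476 and 0.544 FPKM in cold. It and *MTR_2g078960* were the 2 members in which drought and salt at 6 and 12 h did not all lie above each of the 4 cold libraries. In the other 98 they did, against 14.2% of all genes, but the 0 and 12 h values in this count chose the members.

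At least 2-fold apart between drought and salt, in either direction, were 29 members at 2 h, 8 at 6 h and 20 at 12 h, against 7.77%, 6.52% and 11.5% of all genes. The 12 h values entered the rule. At 2 h 24 members were at least 2-fold above 0 h in both stresses (2.32% of all genes), 22 in salt only (3.45%), 12 in drought only (2.93%) and 42 in neither (91.3%). Set directly against salt at 2 h, drought was at least 2-fold higher in 8 members (4.25% of all genes) and at least 2-fold lower in 21 (3.52% of all genes). The median log2 ratio was -0.33, against 0.02 over all genes. At 6 h the count was 4 higher (1.58% of all genes) and 4 lower (4.94% of all genes), with a median of 0.14 against -0.14 over all genes. With 1 library per stress and time, a difference between the seedlings sampled and one between the stresses cannot be told apart.

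**Figure D5:**
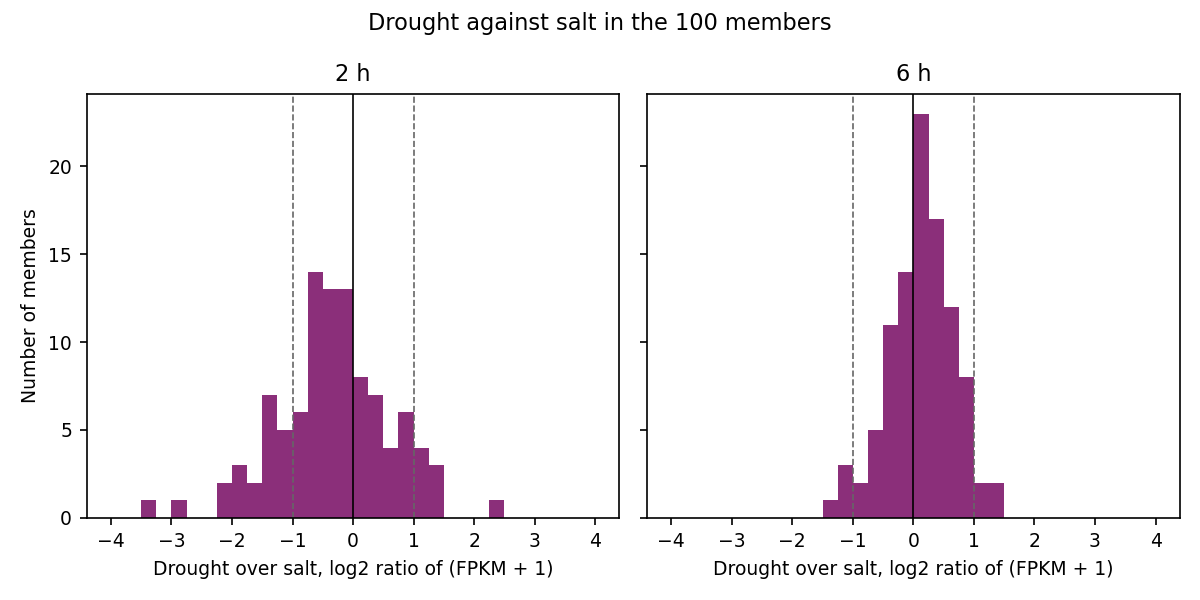
Number of members by the log2 ratio of (FPKM + 1) in drought over salt at 2 h (left) and 6 h (right); the solid line marks equal levels and dashed lines mark 2-fold. At 2 h 67 members lie below 0 and the values run from -3.43 to 2.48. At 6 h 36 lie below 0 and the values run from -1.27 to 1.33. The shares of all genes below 0 were not computed. The all-gene median was 0.02 at 2 h and -0.14 at 6 h.

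In 3 members drought at 2 h was at least 2-fold below 0 h (5.23% of all genes), while 0 members were so in salt (8.71% of all genes). These were *MTR_1g074950* (L of -1.27), *MTR_1g075410* (-1.25) and *MTR_2g013010* (-1.12), the last of them shown above. *MTR_1g074950* had the largest gap between drought and salt, with 10.9, 3.92, 22.6 and 35.8 FPKM in drought, 10.7, 52.0, 55.7 and 22.4 FPKM in salt, and 10.3, 11.4, 5.08 and 5.33 FPKM in cold. At 2 h its log2 ratio of drought over salt was -3.43, and at 12 h it was 0.66.

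*MTR_4g091590* was the reverse case at 2 h, with a ratio of 2.48. It had 6.83, 29.8, 10.0 and 19.1 FPKM in drought, 4.76, 4.53, 8.29 and 11.1 FPKM in salt, and 6.05, 3.60, 1.48 and 1.84 FPKM in cold. At 6 h the highest ratio of drought over salt was in *MTR_4g081500*, 1.33, with 32.5, 67.9, 231 and 285 FPKM in drought, 28.8, 95.4, 91.0 and 88.8 FPKM in salt, and 34.2, 23.9, 19.0 and 15.9 FPKM in cold. *MTR_5g017350* followed with 1.31, and had 11.6, 22.8, 103 and 100 FPKM in drought, 12.1, 39.3, 40.8 and 23.2 FPKM in salt, and 11.6, 13.6, 5.17 and 5.51 FPKM in cold. In both genes salt levelled off or declined after 2 to 6 h while drought stayed high.

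In this annotation the digit before the letter g in an identifier is the chromosome, and the numbers run along it. The members were spread over all 8 chromosomes, with 18 on chromosome 4 as the most and 5 on chromosome 6 as the fewest. They made up between 0.396% and 0.579% of the genes past the filter on each chromosome. A further 1 member lay on an unplaced scaffold (0.233% of the 430 such genes past the filter). Another 2 had identifiers of the EPlMTRG type, among 83 genes past the filter without an MTR identifier (2.41%). These 2 had transcripts of 110 and 196 bp and at most 18 fragments in any library at 0 h.

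Among the members, 4 pairs had identifiers that lie within 60 of each other on a chromosome. How many such pairs other lists of this size hold was not computed, so the count does not show clustering. *MTR_2g078960* and *MTR_2g078970* were direct neighbours in the list, and 1 listed gene lay between *MTR_1g075380* and *MTR_1g075410*. *MTR_7g077180* and *MTR_7g077215* were 2 listed genes apart, and *MTR_7g117385* and *MTR_7g117415* were 3 apart. Whether near-identical copies share reads within these pairs was not tested.

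*MTR_1g075380* had 9.24, 6.11, 46.6 and 49.2 FPKM in drought, 7.07, 17.8, 76.3 and 110 FPKM in salt, and 7.43, 9.74, 6.36 and 3.19 FPKM in cold. *MTR_1g075410* had 57.3, 23.6, 120 and 103 FPKM in drought, 43.3, 59.5, 180 and 241 FPKM in salt, and 51.1, 34.3, 41.5 and 28.2 FPKM in cold. In both, drought at 2 h was the low point of that stress and salt was above drought at 6 and 12 h. The sizes differed, with an L at 12 h of 2.29 and 0.83 in drought and of 3.79 and 2.45 in salt for *MTR_1g075380* and *MTR_1g075410*, and at 2 h of cold the signs were opposite (0.35 and -0.56).

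Many members had short transcripts. The transcript length that the FPKM values imply had a median of 1130 bp, with a range of 110 to 4251 bp, against a median of 1704 bp over all genes past the filter. A total of 49 members were shorter than 1114 bp, the lower quartile of all genes. Short transcripts collect fewer fragments at the same FPKM, and the part of this in the choice of the members was not tested. The 9 members of fewer than 20 fragments at 0 h were then set aside. Of the other 91, 86 were still at least 2-fold above cold in both drought and salt at 6 h. The share of all genes, to which no fragment minimum was applied, was 6.68%.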

How the data were processed

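RNA-seq was carried out on 12 seedling libraries, 1 for each stress and time, and each group came from the labels. By the methods of the study, FPKM values were made with Tophat 2.1.0 on the Mt4.0v1 genome and StringTie 2.0. The submitters' processing notes also name HTSeq and DESeq. Which of these tools gave the deposited values was not tested. The labels describe a 3′-tag library kit, whereas FPKM normalises by transcript length, so if tags were counted the scale between genes would be distorted, and with it the effect of the 1 FPKM filter and pseudocount on each gene.

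Values were computed in Python 3.11.15 with scipy 1.17.1, pandas 2.3.3 and numpy 2.4.6, and plotted with matplotlib 3.10.9. Log2 ratios took a pseudocount of 1 FPKM, which understates changes of low genes. All ratios were computed on the 20864 genes with at least 1 FPKM in the 3 libraries at 0 h. The 25 *SWEET* genes were left out. A gene was called at a 2-fold ratio, the threshold in the methods of the study, with no test because there was 1 library per condition. Fragment counts were recovered from the FPKM values with the mapped totals of the study, to within 0.01 of a whole number in 100% of 37274 genes above 0. They gave 95% Clopper-Pearson intervals for ratios of FPKM without pseudocount. No count model was run on them, for lack of replicates. The steps were tested on simulated data.

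The members and lists were chosen with earlier results of these data known. Genes named were the 10 with the highest score, the 10 with the highest smaller ratio over cold at 6 h, the 5 highest at 0 h, the 3 lowest at 6 h and the 3 on each side of the threshold, plus those said to be chosen after their values were seen. Alternatives were other pseudocounts, scalings, thresholds, filters and controls. Gene lists by product, cell type markers and promoter motifs were not analysed here, since 0 identifiers matched the reference table.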

Additional observations from a re-analysis of the deposited data

Results flagged for a closer look

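At 6 h 94 of the 100 members were above their 0 h level in drought and in salt and below it in cold, against 14.4% of all genes past the filter. At 2 h 63 members showed this opposite movement, against 11% of all genes. Both counts share the 0 h libraries with the choice of the members. With 1 library per condition, the difference between the stresses was not tested.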

How the results depend on the processing

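Of 77 recomputed counts, 58 stayed within 1.5 times the value in the report. Restricting the members to those with at least 5 FPKM at 0 h kept 63, so its counts are smaller by construction. Shares in brackets are those of all genes past the filter at the same setting. Among the 63, 60 were 2-fold above cold in both stresses at 6 h (6.38%). At 6 h 46 were 2-fold higher in salt (6.55%) and 29 were 2-fold lower in cold (6.57%). At 2 h 23 were 2-fold higher in drought (4.5%), 27 were 2-fold higher in salt (4.99%) and 6 were 2-fold lower in cold (2.28%). With a 1.5-fold threshold, 57 members were above cold in both stresses at 2 h (6.15%) and 55 were higher at 2 h of drought (10.9%). In cold 68 were lower at 6 h (19.9%) and 32 at 2 h (9.9%). With a 3-fold threshold, 15 were above cold in both at 2 h (0.652%). The counts in drought were 47 at 6 h (3.78%) and 11 at 2 h (1.95%). They were 21 at 2 h of salt (2.43%), 12 at 6 h of cold (1.37%) and 1 at 2 h of cold (0.374%). The mean of the 0 h libraries as control gave 7 members lower at 2 h of cold (2.5%). A list of 50 genes is by construction the first 50 members, and a list of 200 genes holds all 100. Both are among the 77 counts, so those outcomes were fixed in advance. Scaling by the median ratio of the libraries kept 67 of the 100 members when the rule was applied again, and a pseudocount of 0.1 kept 77. Scaling the same members by the median ratio left 92 of them 2-fold above cold in both stresses at 6 h (6.4%). It gave 32 lower at 6 h of cold (4.58%). An alternative that set aside members with few fragments was chosen after seeing the data. No paired analysis was possible because the conditions share 1 replicate number, with 1 library each. Depth limits mainly the cold values at 12 h, where low members rest on few fragments.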

Other observations

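The pattern of the members was held by a minority of the genes that responded to drought and salt. The values below are the 12 h values that the rule used, so they are a description only. At 12 h 1032 of the 20864 genes past the filter were at least 2-fold higher in both drought and salt, among them 74 of the members. In cold at 12 h 49 of these 1032 genes were at least 2-fold lower, against 1763 of all 20864 genes (8.45%). A further 202 were at least 2-fold higher and 781 stayed within 2-fold, and the shares of all genes in these classes were not computed. The median L in cold was 0.28, against -0.18 over all genes. Of the 1763 genes at least 2-fold lower at 12 h of cold, 544 were also at least 2-fold lower in both drought and salt. The share of all genes lower in both was not computed. The 49 above were at least 2-fold higher in both.

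The mirror pattern, higher at 12 h of cold and lower at 12 h of drought and of salt, was about as frequent by the same score. It passed 0 in 2775 genes and reached 1 in 44, against 2313 and 49 genes for the pattern of the members. The 100th gene of the mirror list had a score of 0.80, close to the 0.81 of the last member.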
